A study of Mus musculus with 4 samples.

Results

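The enzymes that build cholesterol and fatty acids, with the SREBP proteins that regulate them, were followed in mouse CH10T1/2 cells, a fibroblast line, on 4 Affymetrix Mouse Genome 430A 2.0 arrays. The 33 genes were listed by name: 18 of sterol synthesis, 8 of fatty acid synthesis and 7 of SREBP regulation. Probe sets with one of these names as their only gene symbol existed for 31 of the 33, of 12393 genes named in that way, through 61 of 22626 probe sets other than controls. Acat2 and Insig1 had no such probe set and were not analysed here.

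The cells carried stably transfected PTHR1, a cell surface receptor that binds parathyroid hormone and PTHrP. It was the wild type form in one line (WT) and in the other the R150C variant, which the submitters tie to enchondromas, benign tumours of cartilage. After a night without serum each line was kept for 1 h with PTHrP at 1e-07 M or with carrier, giving 4 groups of 1 array. The labels of the WT control sample itself name no carrier; the series text gives it for untreated cells in general. Each receptor is represented by 1 transfected line, so receptor and line cannot be told apart, and the sources used here do not say whether a line was 1 clone or a pool.

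Cells make cholesterol from acetyl-CoA through mevalonate, isoprenoids, squalene and lanosterol. SREBP transcription factors switch the enzymes on together. While sterols are plentiful, Insig proteins hold the SREBP escort Scap in the endoplasmic reticulum; when sterols run low, Scap carries SREBP to the Golgi, where proteases free its active part. SREBP-2 (Srebf2) is known mainly for the sterol enzymes and SREBP-1c (from Srebf1) for the fatty acid enzymes. NF-Y, which binds the CCAAT box, and Sp1 are known partners of SREBP at these promoters.

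The deposited value of a probe set is a fluorescence signal on a linear scale. Differences below are on the scale log2(signal + 16), after each array was centred on the median of the kept genes, and they understate the change of dim genes. The brightest probe set stood for a gene, and 6197 genes whose mean lay at or above a signal of 62.61 were kept. This took in 29 of the 31 genes. Acaca and Lpin1 lay below it, and Dhcr7, with a signal below that level in both R150C arrays, passed through its WT arrays. From the departure from additivity over all kept genes, differences between 2 arrays had a spread of 0.246 (SD, log2). With 1 array per group, a single difference has no test. Effects common to both media or both lines were tested with limma's additive model and Benjamini-Hochberg adjustment, with 1 residual degree of freedom. The arrays differ in line or treatment, and no group has a replicate culture. The error behind limma's p-values is the departure from additivity. It mixes array spread, differences between dishes and any PTHrP response that differs between the lines, which cannot be told apart. These p-values do not measure variation between replicate cultures of a group.

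The ratio of 3' to 5' signal, a measure of RNA integrity and labelling, was lowest in the WT control array, at 0.845 for the Gapdh control probe sets against 0.991 to 1.21 in the other arrays, and at 1.42 for actin against 2.13 to 2.39. All 8 fibroblast markers were kept, with summed signals from 25501.8 to 32790.3. Their median line difference over both media was -0.28, and 1 of the 8, Pdgfra, was called lower in R150C (164.4 and 178.3 in WT, 114.3 and 114.9 in R150C, -0.55, limma adjusted p 0.0427). The part of this shift in the line differences below was not tested. Of the 6 adipocyte markers measured, 3 were kept, with 129.3 to 185.6 for Fabp4, 64.2 to 87.9 for Pparg and 59.0 to 82.5 for Retn. Adipoq read 6.3 to 21.2 and Lep 2.8 to 6.5, below the filter, and the sum over the 6 ran from 312.1 to 402.8. Cebpa, the other of these, was below the filter and read 58.9 and 80.6 in WT and 16.4 and 22.5 in R150C; its part in the line differences was not tested. None of 4 hepatocyte and 4 endothelial markers was kept. Of 4 epithelial markers Krt8 was kept (65.2 to 83.9), and Epcam, Cdh1 and Krt18 were not. Of 5 macrophage markers Csf1r and Cd14 were kept while Ptprc read 8.2 to 16.3. In RNA from a whole culture, fewer cells of a type and less RNA per cell cannot be told apart.

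The promoters of the sterol enzymes share a feature that the choice of genes did not use. RefSeq promoters (GRCm38.p6) were matched for 26 of the 33 genes, and the 250 bases before the start were searched on both strands. A CCAAT box (CCAAT, or ATTGG on the other strand) stood in 14 of 15 sterol synthesis genes, 1 of 5 fatty acid genes (Fasn) and 4 of 6 genes of SREBP regulation. Among 17492 protein-coding genes 39.5% had one. An Sp1 GC box (GGGCGG, or CCGCCC) stood in 14, 2 and 5 genes of the same groups, against 45.8% of all genes. The sterol regulatory element TCACNCCAC, N being any base, was found in Hmgcs1 alone (TCACCCCAC) and in 1.2% of all genes. The longer form, TCACCCCAC with an A before it, was found in none of the 26 and in 0.0629% of all. The E-box CACGTG stood in 5 of the 26 and in 7.61% of all. A match describes letters in a window and does not show binding. The stretches below, from genes that stood at either end of the comparisons that follow, show CCAAT boxes in capitals on either strand, and in Hmgcs1 also the sterol element; transcribed parts were left out, except that the Dhcr7 stretch of 30 bases lies inside the gene's outermost RefSeq bounds.
Hmgcs1 (chr13:119690201-119690350, + strand): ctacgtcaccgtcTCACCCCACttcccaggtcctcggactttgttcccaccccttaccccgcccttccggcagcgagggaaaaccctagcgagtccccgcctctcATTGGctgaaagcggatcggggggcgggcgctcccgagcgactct
Hsd17b7 (chr1:169969243-169969355, - strand): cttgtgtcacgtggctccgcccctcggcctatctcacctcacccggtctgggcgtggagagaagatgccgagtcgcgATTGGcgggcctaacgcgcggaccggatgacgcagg
Msmo1 (chr8:64733579-64733728, - strand): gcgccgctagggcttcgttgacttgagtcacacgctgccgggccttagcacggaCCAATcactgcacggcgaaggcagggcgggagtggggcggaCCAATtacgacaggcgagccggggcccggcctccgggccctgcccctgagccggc
Mvk (chr5:114444119-114444263, + strand): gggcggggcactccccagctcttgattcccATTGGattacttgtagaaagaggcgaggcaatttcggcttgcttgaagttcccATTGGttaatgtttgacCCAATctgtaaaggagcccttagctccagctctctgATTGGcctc
Dhcr7 (chr7:143830150-143830179, + strand): cgaaatccacttccgATTGGtcgtctgtga
Insig2 (chr1:121332663-121332739, - strand): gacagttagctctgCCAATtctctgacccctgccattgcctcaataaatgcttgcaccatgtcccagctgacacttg
Mvk holds 4 CCAAT boxes in the stretch shown, Msmo1 2 and the others 1 each. Each stretch was picked to hold a CCAAT box, so its presence does not compare genes that limma called between the lines with others. Dhcr7 and Insig2 have 3 windows each, and the box did not stand in all of them. Scd2, which limma called lower in the R150C line with Dhcr7, Mvk and Insig2, had no promoter entry.

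**Figure D1:**
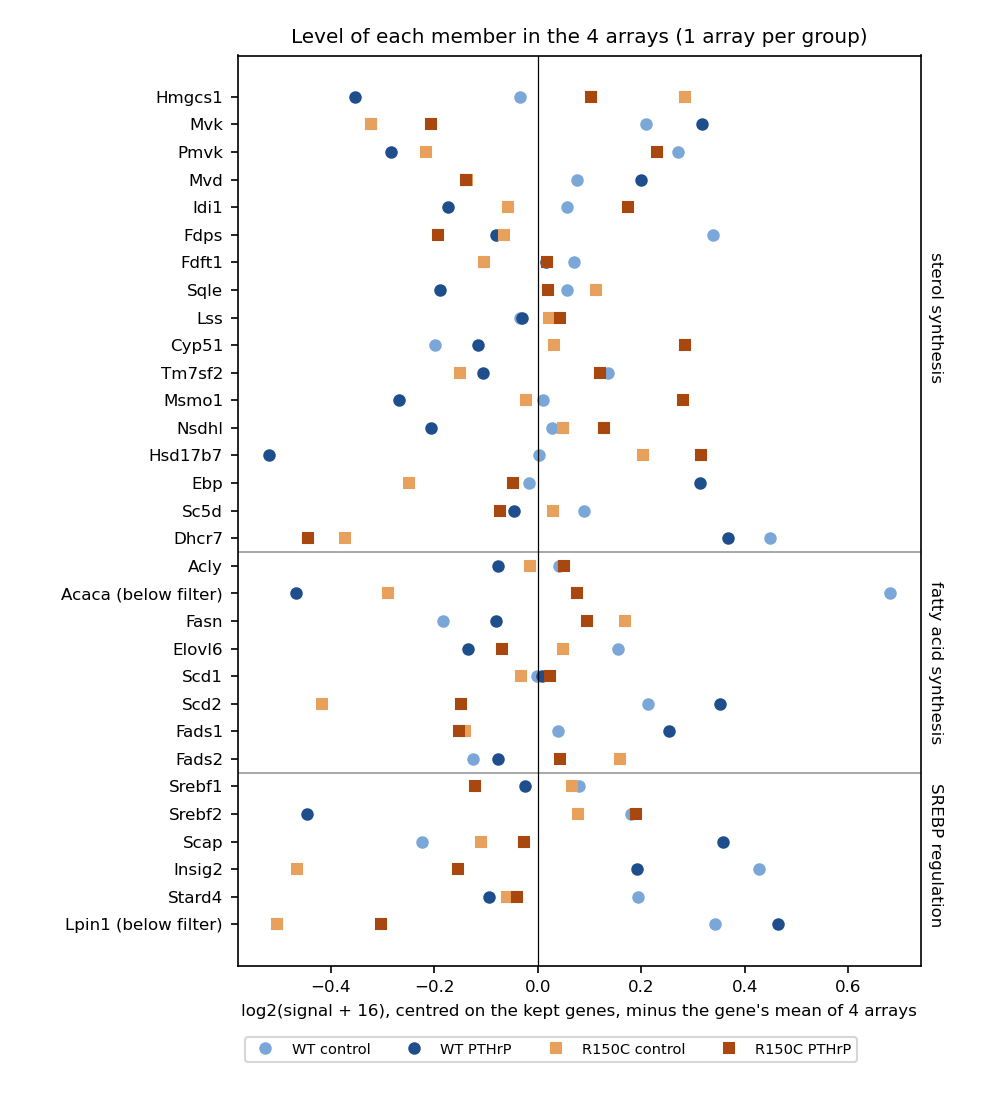
Level of the 31 measured genes in the 4 arrays, as log2(signal + 16) centred on the kept genes, minus each gene's mean over the arrays; circles are the WT line and squares the R150C line, 1 array each. Dhcr7, Mvk and Scd2 have both squares left of both circles, while Hmgcs1, Cyp51 and Hsd17b7 have them on the right.

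The first comparison asked how the R150C line differed from the WT line. No member of the 3 groups was higher and 4 were lower by limma over both media: the sterol enzymes Dhcr7 and Mvk, the fatty acid desaturase Scd2 and the SREBP anchor Insig2. Over all kept genes limma called 5.52% higher and 4.18% lower in R150C at the same threshold. Of the genes called, Dhcr7 was kept through its WT arrays, where it is high. The remaining 25 kept members did not pass. The median difference over both media was 0.01 for 17 sterol genes, -0.01 for 7 fatty acid genes and -0.10 for 5 genes of SREBP regulation, against -0.06 for all kept genes.

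Dhcr7, the last reductase on the way to cholesterol, read 92.6 in WT control, 88.1 in WT PTHrP, 46.8 in R150C control and 44.1 in R150C PTHrP. The lines did not overlap, and the arrays of each line were close together. Both R150C signals lay below the filter level of 62.61, so Dhcr7 was kept through its WT arrays, where it is high. The difference was -0.82 in control medium and -0.81 under PTHrP, and -0.82 over both (SE 0.147, limma adjusted p 0.00564). The adjusted p ran from 0.00105 to 0.116 over 8 alternative settings, being above 0.05 where no filter was applied.

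Mvk, the kinase that phosphorylates mevalonate, had WT signals of 240.2 in control medium and 263.9 under PTHrP, and R150C signals of 165.1 and 181.5. The lines did not overlap. The differences were -0.53 and -0.52, and -0.53 over both media (SE 0.147, limma adjusted p 0.047). A second Mvk probe set read 171.7 and 139.0 in WT and 87.7 and 93.7 in R150C, lower in the R150C line as well. The Mvk call was lost under 4 of 9 alternatives, with adjusted p from 0.0094 to 0.26.

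At the entry to the pathway the order was the opposite. Hmgcs1, the synthase that makes HMG-CoA, read 1834.1 and 1486.3 in WT and 2344.8 and 2076.3 in R150C, with no overlap. The differences were 0.32 and 0.46, with 0.39 over both media (SE 0.149), and did not pass limma's test (adjusted p 0.133). Its other 3 probe sets gave line differences over both media of 0.30, 0.26 and 0.39. Hmgcs1 and Mvk, which act in the same early stretch of the pathway, thus lay on opposite sides of 0, and so did all probe sets of each.

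Further along the sterol pathway, Hsd17b7, which acts on the sterol ring ketone, read 160.7 and 108.7 in WT and 191.6 and 209.9 in R150C. The R150C arrays were both higher, by 0.20 in control medium and 0.84 under PTHrP, with 0.52 over both (SE 0.176, limma adjusted p 0.0953). Its dim probe set (50.9, 15.8, 22.1 and 24.6 in the order WT control, WT PTHrP, R150C control, R150C PTHrP) was highest in WT control and did not follow this order.

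Cyp51, the lanosterol demethylase, differed by 0.23 and 0.40, and its next probe set by 0.72 and 0.88 (signals 110.4 and 101.0 in WT, 197.5 and 202.6 in R150C). Neither Cyp51 nor the isomerase Idi1 passed limma's test, with adjusted p of 0.217 and 0.695. The bright Idi1 probe set differed by -0.11 and 0.35, while the dimmer one read 180.6 and 165.0 in WT and 294.6 and 238.3 in R150C, with differences of 0.63 and 0.47. For both genes the line difference was larger in a dimmer probe set than in the bright one. The dimmest Cyp51 probe set, below the filter, differed by only -0.05 and 0.13.

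Sqle, the epoxidase that commits squalene to sterols, read 784.9 and 668.7 in WT and 835.3 and 787.1 in R150C, which differ by 0.06 and 0.21, inside the spread of a pair. The cyclase Lss differed by 0.06 and 0.07. Also inside the spread in both media were the squalene synthase Fdft1 (-0.18 and 0.00) and the desaturase Sc5d (-0.06 and -0.03). The isomerase Ebp (-0.23 and -0.36) and the decarboxylase Mvd (-0.21 and -0.34) lay lower in R150C in both media. A second Mvd probe set differed by -0.12 and 0.21, so its probe sets disagreed under PTHrP. Fdps, which makes farnesyl diphosphate, differed by -0.40 and -0.11. Pmvk, the kinase after Mvk, differed by -0.49 and 0.51, and the sterol reductase Tm7sf2 by -0.29 and 0.23. Msmo1, which removes methyl groups from the sterol ring, differed by -0.03 and 0.55, and the dehydrogenase Nsdhl, which acts beside it, by 0.02 and 0.33. None of these passed limma's test over both media.

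**Figure D2:**
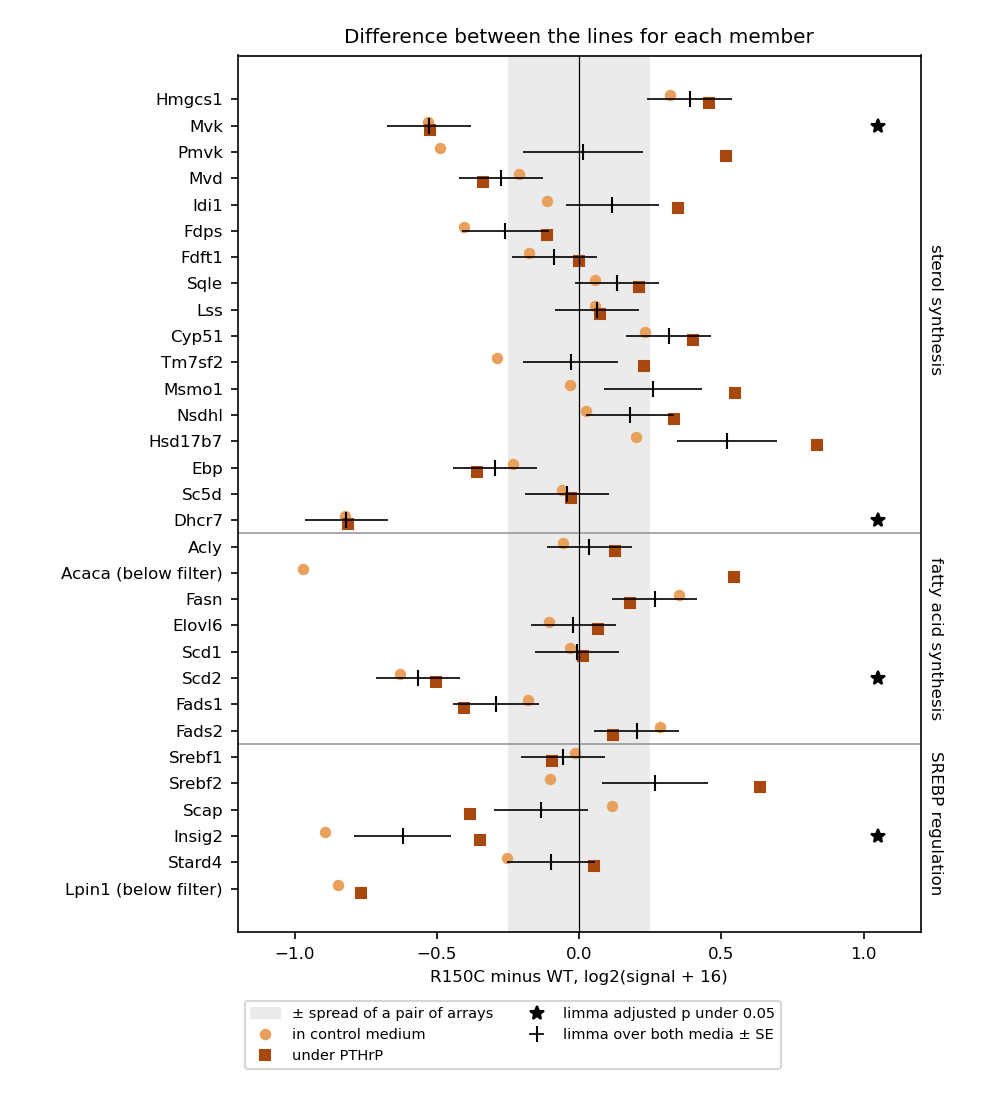
Difference between the R150C and WT lines (log2) in control medium (circles) and under PTHrP (squares) for the 31 measured genes, with limma's estimate over both media ± SE and stars for adjusted p under 0.05; the grey band is ± 0.246, the spread of a pair of arrays. Dhcr7, Mvk, Scd2 and Insig2 carry a star, all on the lower side.

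Among the fatty acid genes the desaturases behaved unequally. Scd2, which puts a double bond into saturated fatty acids, read 1979.0 and 2212.4 in WT and 1301.5 and 1580.2 in R150C, with no overlap. The differences were -0.63 and -0.50, and -0.57 over both media (SE 0.148, limma adjusted p 0.0369). The call was lost under 4 of 9 alternatives, and adjusted p ran from 0.00592 to 0.229. In the other 2 Scd2 probe sets the WT control array stood apart. One read 1251.5 there against 647.0, 480.9 and 448.4 (WT PTHrP, R150C control, R150C PTHrP). In it both R150C arrays also lay below both WT arrays, with differences of -1.38 and -0.53. The other read 357.5 in WT control against 32.2, 38.5 and 23.8 in the same order, and there the lines overlapped.

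Scd1, the related desaturase, read 483.9, 494.2, 484.3 and 506.9 (WT control, WT PTHrP, R150C control, R150C PTHrP). Its line differences, -0.03 and 0.01, were inside the spread of a pair. A dimmer Scd1 probe set read 116.6 in WT control and 59.3, 62.0 and 42.2 in the other arrays, again highest in WT control.

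Fasn, the fatty acid synthase, read 719.7 and 784.0 in WT and 944.0 and 901.8 in R150C. The R150C arrays were both higher, by 0.35 and 0.18, and limma's test was not passed (0.26, SE 0.149, adjusted p 0.296). Acly, which supplies cytosolic acetyl-CoA, differed by -0.06 and 0.13, and the elongase Elovl6 by -0.11 and 0.07, all inside the spread. The desaturases Fads1 and Fads2, which make polyunsaturated fatty acids, differed by -0.18 and -0.41 and by 0.28 and 0.12. A second Fads2 probe set differed by -0.84 and 0.03, with WT control (199.0) above the other arrays (115.3, 106.4 and 120.1). Acaca, the acetyl-CoA carboxylase, was below the filter and was not tested; it read 72.3, 24.4, 30.1 and 43.7 in the same order, and only WT control stood above the filter level.

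Of the regulators, Insig2 read 151.0 and 127.7 in WT and 75.9 and 98.6 in R150C. The lines did not overlap, and the difference was larger in control medium (-0.89) than under PTHrP (-0.35), with -0.62 over both (SE 0.169, limma adjusted p 0.0436). The call was lost under 5 of 8 alternatives, with adjusted p from 0.0192 to 0.256. Its other 2 probe sets differed by -0.23 and -0.28 over both media, of the same sign and less far apart.

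Srebf1 read 200.4 and 188.0 in WT and 203.2 and 177.5 in R150C, differences of -0.01 and -0.10 inside the spread. Srebf2 read 406.0 and 261.1 in WT and 385.9 and 420.9 in R150C, so that only WT PTHrP stood apart, with line differences of -0.10 and 0.64. A second Srebf2 probe set read 310.4 and 269.9 in WT and 414.9 and 361.2 in R150C, which puts both R150C arrays higher, by 0.37 and 0.38. Over both media Srebf2 did not pass limma's test (0.27, SE 0.185, adjusted p 0.399). Scap differed by 0.11 and -0.39, and the sterol carrier Stard4 by -0.25 and 0.05. Lpin1, a phosphatidate phosphatase that also restrains SREBP, was below the filter and was not tested. It read 41.5 and 47.4 in WT and 16.7 and 21.8 in R150C, without overlap, and a dimmer probe set read 33.2 and 28.3 in WT and 6.9 and 16.4 in R150C.

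Counted singly, 3 kept members were at least 1.5-fold lower in R150C in control medium (Dhcr7, Scd2 and Insig2) and 0 higher, against 5.62% and 5.99% of all kept genes. Under PTHrP 1 was lower (Dhcr7) and 2 were higher (Hsd17b7 and Srebf2), against 5.26% and 6.05%. Of the 17 sterol genes, 6 were above 0 in control medium and 11 under PTHrP, against 45.1% and 42.4% of all kept genes. Both R150C arrays lay above both WT arrays in 7 of 29 members and below them in another 7. The same held for 23% and 33.2% of all kept genes. In 11 of 14 members with more than 1 probe set above the filter, the line differences over both media had the same sign. Mvd, Acly and Fads2 were the exceptions. The same share over all kept genes was not taken, so no background stands beside 11 of 14.

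Of 47 member probe sets above the filter, WT control was the highest array in 19 (40.4%), against 29.1% of all 9961 probe sets above the filter. R150C PTHrP was highest in 12 (25.5%, against 17.7%), WT PTHrP in 8 (17%, against 32.3%) and R150C control in 8 (17%, against 20.8%). WT control also had the lowest 3' to 5' ratios, at 0.845 for Gapdh and 1.42 for actin; the part of the ratio in these probe sets was not tested. In the comparison under PTHrP, between WT PTHrP and R150C PTHrP, Dhcr7 stood at -0.81, Mvk at -0.52, Scd2 at -0.50 and Insig2 at -0.35. These are values with no test, and the part of the 3' to 5' ratio in them was not tested either.

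**Figure D3:**
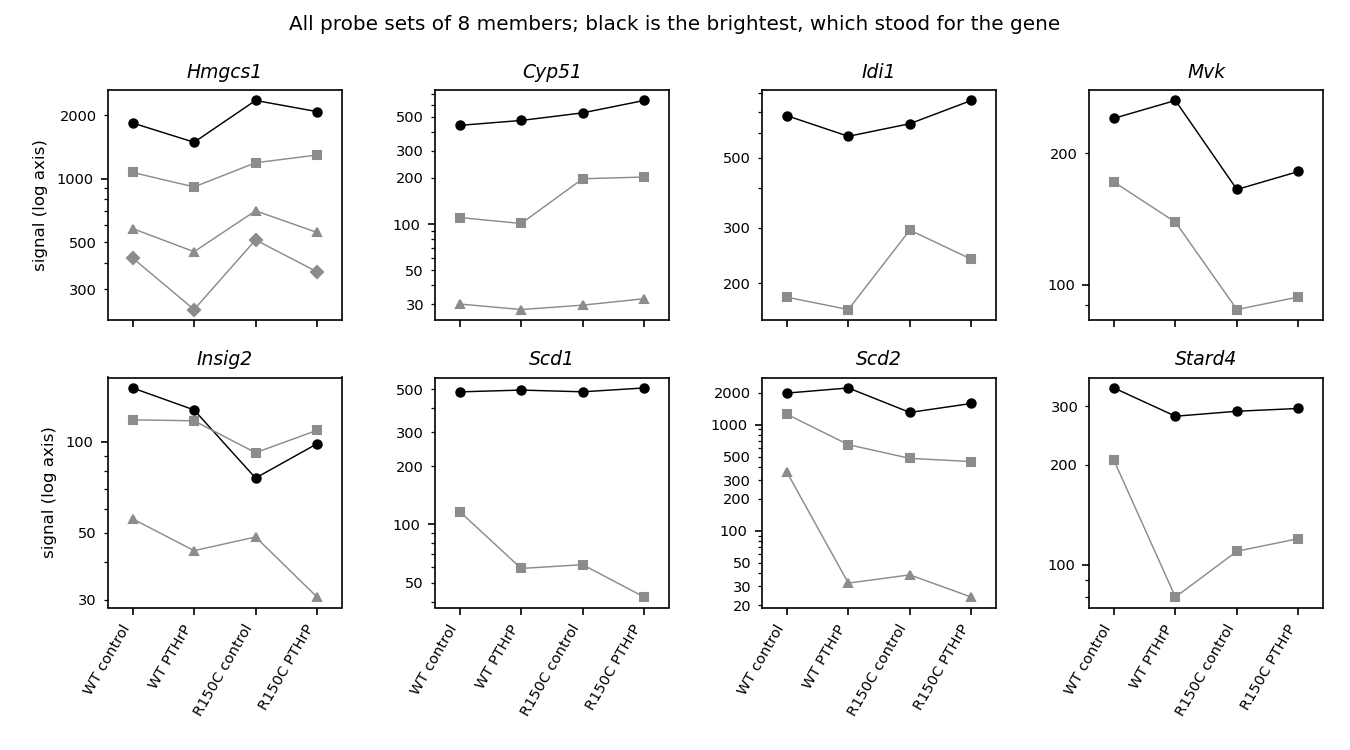
Signal (log axis) of every probe set of 8 members in the 4 arrays, 1 array per group; black marks the brightest probe set, and lines join the values of 1 probe set. All 4 Hmgcs1 probe sets are lowest in WT PTHrP, the dimmer probe sets of Scd1, Scd2 and Stard4 are highest in WT control, and both Mvk probe sets are lower in the R150C line.

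The PTHrP comparison asked what 1 h of ligand did in each line. No member was called by limma over both lines, where the smallest adjusted p among members was 0.915 and none had an unadjusted p under 0.05; over all kept genes limma called 0, and 5.57% had an unadjusted p under 0.05. In the WT line the median of the 17 sterol genes was -0.23 and 12 of them were below 0, against a median of 0.03 and 45.4% below 0 over all kept genes. For R150C the sterol median was 0.11, with 11 above 0, against -0.01 and 48.3%. The fatty acid genes had medians of 0.05 and -0.01, and the genes of SREBP regulation -0.24 and 0.08. Centred on all probe sets, which raised the median of all kept genes in WT to 0.22, the WT medians were -0.04 for sterol genes, with 9 of 17 below 0 against 20.2% of all genes, -0.05 for SREBP regulation and 0.24 for fatty acid genes. After quantile normalization they were -0.10, -0.15 and 0.03, with 11 of 17 sterol genes below 0 against 39.1%. With 1 array per group these are values with no test. The 3' to 5' ratios were lower in WT control than in WT PTHrP (Gapdh 0.845 against 1.17, actin 1.42 against 2.39). The part of these ratios in the WT differences was not tested.

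The sterol genes that stood lowest after PTHrP in the WT line were Pmvk (97.7 to 62.4, a difference of -0.56), Hsd17b7 (160.7 to 108.7, -0.52) and Fdps (1370.0 to 1034.3, -0.42). Hmgcs1 differed by -0.32 in its bright probe set and by -0.24, -0.37 and -0.79 in the others, so that all 4 were lower after PTHrP. Msmo1 (-0.28), Sqle (-0.25), Tm7sf2 (-0.24), Nsdhl (-0.23) and Idi1 (-0.23) followed, near the spread of a pair. Ebp stood highest (311.4 to 401.2, 0.33).

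By brightest probe sets, Srebf2 (-0.63) was the sole kept member at least 1.5-fold lower in the WT line (2.34% of all kept genes were). Its second probe set differed by -0.21. Dimmer probe sets above the filter fell further in Scd2 (-0.95 and -2.97), Stard4 (-1.23), Scd1 (-0.84), Hmgcs1 (-0.79), Fads2 (-0.73) and Acly (-0.70). Those of Elovl6 (0.25) and Fdft1 (0.11) and another of Acly (0.11) lay above 0. The part of the 3' to 5' ratios, which were lowest in WT control, in these probe sets was not tested. Scap, the escort, went from 197.4 to 307.9, a difference of 0.58. No kept member was at least 1.5-fold higher in the WT line, against 1.39% of all kept genes. In the R150C line 0 were at least 1.5-fold higher and 0 lower, against 1.19% and 0.645%. There Pmvk went from 66.9 to 97.6 (0.45), Insig2 from 75.9 to 98.6 (0.31) and Msmo1 from 1234.9 to 1537.2 (0.30). In Pmvk and Msmo1 the lines differed in sign, each beyond the spread of a pair, which held for 3.73% of all kept genes. Acaca, below the filter, differed by -1.15 in WT and 0.36 in R150C.

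**Figure D4:**
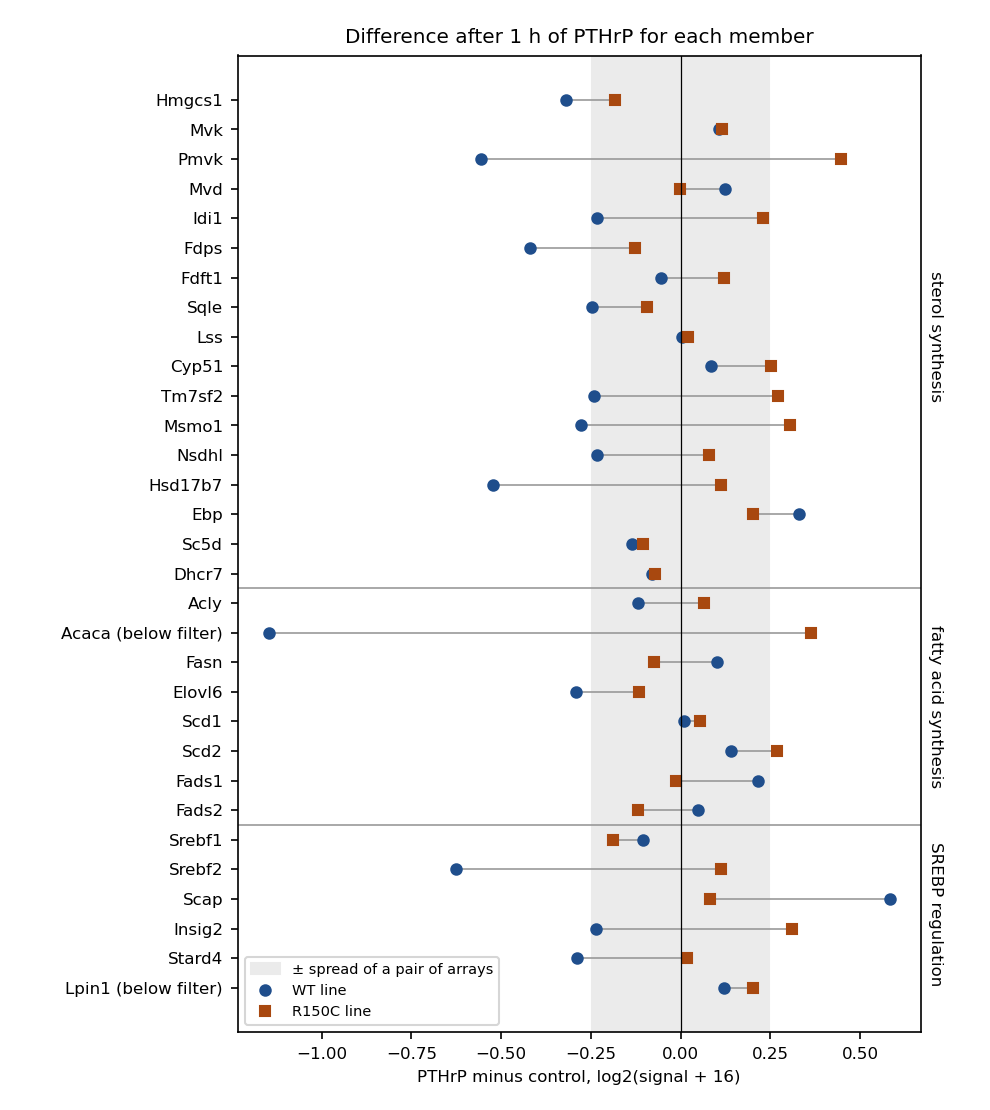
Difference after 1 h of PTHrP (log2) in the WT line (circles) and the R150C line (squares) for the 31 measured genes, joined by a line; the grey band is ± 0.246, the spread of a pair of arrays. In 15 of 17 sterol genes the square lies to the right of the circle, and 20 of 31 circles and 24 of 31 squares lie inside the band.

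The response of the R150C line minus that of the WT line was above 0 in 15 of 17 sterol genes, against 46.4% of all kept genes, with a median of 0.17 against -0.03. Mvd and Ebp were the exceptions. This difference of responses is the same quantity as the line difference under PTHrP minus that in control medium, and it leaves no residual for a test. In 7 of the 17 sterol genes (41.2%) WT PTHrP was the lowest of the 4 arrays, against 22.7% of all kept genes. R150C PTHrP was the highest in 6 (35.3%, against 17.9%), and WT control was the highest in another 6 (35.3%, against 24.6%). Each array weighs equally in the value, so a single array can set it. WT control, which had the lowest 3' to 5' ratios, is among the 4 arrays, and the part of the ratios in this value was not tested. Over the alternative settings the count ran from 11 of 17, with all probe sets used for centring (31.9% of all genes) or with no filter (43.8%), to 15 of 17.

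Other genes of lipid metabolism were read in 4 lists grouped by function. Of 5 kept genes of SREBP processing and further sterol steps, 0 passed limma's test between the lines, which called 5.52% of all kept genes higher and 4.18% lower. Pgrmc1 (-0.17) and the SREBP protease Mbtps1 (-0.17) lay farthest from 0 among them. Of 9 genes of cholesterol uptake, transport and efflux, 1 was higher in R150C and 0 lower. It was Ch25h, which makes 25-hydroxycholesterol, an oxysterol known to block SREBP activation. Ch25h read 59.0 and 49.3 in WT and 161.4 and 168.9 in R150C. The lines did not overlap, and the difference over both media was 1.35 (SE 0.153, limma adjusted p 0.000285). Both WT signals lay below the filter level of 62.61, so Ch25h was kept through its R150C arrays, where it is high. Mylip, a ubiquitin ligase that limits lipoprotein uptake, differed by 0.34 and did not pass.

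Of 18 genes of fatty acid activation, elongation and glycerolipid synthesis, 1 was higher and 1 lower in R150C, near those shares. Acsl4, which activates polyunsaturated fatty acids, read 95.8 and 64.8 in WT and 125.0 and 154.4 in R150C, a difference of 0.68 (SE 0.187, limma adjusted p 0.0448). Mcat, of mitochondrial fatty acid synthesis, read 101.9 and 124.6 in WT and 61.5 and 54.5 in R150C, a difference of -0.83 (SE 0.158, limma adjusted p 0.00793). Both R150C signals lay below the filter level, so Mcat was kept through its WT arrays.

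Fatty acid oxidation had 0 genes higher and 2 lower of 18, against the same 5.52% and 4.18%. Hadh, a dehydrogenase of beta-oxidation, read 668.5 and 768.3 in WT and 420.1 and 406.9 in R150C, a difference of -0.80 (SE 0.151, limma adjusted p 0.00757). Decr1, which helps oxidise unsaturated fatty acids, differed by -0.52 (limma adjusted p 0.0492), and Eci1, an isomerase of the same pathway, by -0.55 without passing (adjusted p 0.0547). The line difference was below 0 in 16 of the 18 genes, with a median of -0.36, against 58.8% and -0.06 over all kept genes. Both R150C arrays lay below both WT arrays in 13 of the 18, against 33.2%. For the synthesis genes the counts below 0 were 4 of 7 for fatty acids and 8 of 17 for sterols. The difference between these lists was not tested.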

How the data were processed

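Signals of 22690 probe sets on 4 arrays (1 per group) were used. The deposited intensity values are linear; the submitters' processing notes name Affymetrix Expression Console, and its version and algorithm are not stated in the sources used here. All 4 arrays had a mean of 150.1 after trimming 2% of values from each end, which shows global scaling before deposit. The number of arrays limits precision.

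Left out were 64 control probe sets. The platform annotation gave 1 gene symbol to 20380 of the rest, several to 691 and none to 1555; Entrez identifiers updated 20351 to the GRCm38.p6 gene table. Values were taken as log2(signal + 16), the brightest probe set stood for each of 12393 genes, genes at or above the median mean (6197) were kept, and each array was centred on their median. limma 3.58.1 (R 4.3.3) fitted receptor and treatment additively (eBayes, Benjamini-Hochberg, 0.05) and was tested on simulated data. Single differences were counted at 1.5-fold.

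Samples were grouped by their titles. Some genes are not reported here. Members, lists, tests and this centring were chosen with earlier results of these data known. Values in every array were to be given for members called by limma or 1.5-fold apart in any comparison, and for Srebf1, Srebf2, Insig1, Hmgcs1, Sqle, Fasn, Scd1 and Scd2; of each related list, the 2 kept genes farthest from 0 between the lines were named, and Decr1, the other oxidation gene called, was named after its values were seen. Alternatives covered centring, pseudocount, probe set choice, filter, prior variance and fold threshold. Promoters came from RefSeq tables, with motifs searched in the 250 bases before each start.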

Additional observations from a re-analysis of the deposited data

Results flagged for a closer look

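In 2 kept members the PTHrP differences of the lines had opposite signs, each larger than the spread of a pair of arrays (0.246). Pmvk differed by -0.56 in the WT line and by 0.45 in the R150C line, a difference between responses of 1. Msmo1 differed by -0.28 and 0.30, a difference between responses of 0.58. The difference between the lines was not tested, since each response rests on 1 pair of arrays. The same held for 3.73% of all kept genes. Each of these genes has 1 probe set.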

How the results depend on the processing

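No paired analysis was possible because each group has 1 array and the labels carry no replicate numbers. With no filter, limma called 112 genes higher and 35 lower in R150C (342 and 259 in the report). PTHrP calls over both lines, 0 in the report, were 25 when arrays were centred on all probe sets and 1 without centring. Members called higher, 0 in the report, were 1 (Hsd17b7) under each of these 2 settings. Members called lower, 4 in the report, were 2 when centred on all probe sets and 1 after quantile normalization. They were 1 and 3 with pseudocounts of 1 and 64, and 3 with probe sets averaged. With the filter at the 75th percentile, which left Dhcr7 and Insig2 out, they were 2, and with no filter 0. Dhcr7 alone was called under all 4 scalings, but it was kept through its WT arrays, where it is high.

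Counts at 1.5-fold moved as follows. In control medium, members lower in R150C (3) were 2 when centred on all probe sets and with a pseudocount of 64. They were 1 at the 75th percentile and 4 with no filter. Under PTHrP, members higher (2) were 3 with a pseudocount of 1, and 1 with a pseudocount of 64, with probe sets averaged or at the 75th percentile. Members lower there (1) were 0 with a pseudocount of 64, 0 at the 75th percentile and 2 with no filter. After PTHrP in WT, members higher (0) were 1 under the other 3 scalings, with a pseudocount of 1, with probe sets averaged and with no filter; Scap, at 0.58, lies at the threshold of 0.585. Members lower (1) were 0 when centred on all probe sets, 2 and 0 with pseudocounts of 1 and 64, and 3 with probe sets averaged. At 2-fold, 0 members passed in any of the 4 comparisons.

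Of the counts and list medians under the alternatives, 32 were labelled as moved and 241 as the same. The second label does not mean an equal value. It took in the sterol count of 15 of 17 that became 11 when centred on all probe sets. It also took in the sterol median after PTHrP in WT, which went from -0.23 to -0.04 there. Of 254 member tests between the lines, 14 lost and 2 gained a call and none reversed. Centring on all probe sets moved the median of all kept genes after PTHrP in WT from 0.03 to 0.22; the cause was not tested. Over 8 alternatives the medians after PTHrP in WT ran from -0.24 to -0.04 for sterol genes, from -0.35 to -0.05 for SREBP regulation and from -0.06 to 0.24 for fatty acid genes, which changed sign with probe sets averaged and at the 75th percentile. The arrays carry no detection calls, so dim values have no lower bound here.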
